A study of Mus musculus with 22 samples.

Results

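The genes that encode ionotropic receptors for glutamate and GABA were taken from the gene symbols of the hypothalamic nuclei count table, by a match to the Gria, Grik, Grid, Grin and Gabr family names. There were 36 of them among 20668 genes: 4 AMPA receptor genes (Gria1 to Gria4), 5 kainate receptor genes (Grik1 to Grik5), 2 delta receptor genes (Grid), 7 NMDA receptor genes (Grin), 15 GABA-A receptor genes and 3 GABA rho receptor genes (Gabrr). The whole-cell table held 31 of the 36 among 16304 genes, without Gabra6, Gabrr1, Gabrr3, Grin2d and Grin3b. The symbols were chosen by name alone, so no measured value decided which genes were included.

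All mice were 11-week-old male ob/ob mice, which lack functional leptin and are obese and diabetic. Each mouse received a single intracerebroventricular (icv) injection of either 3 µg recombinant human FGF1 or PBS vehicle, with vehicle-injected controls given only as much food as FGF1 mice ate (pair-fed, PF), so that none of the groups had normal leptin and every control was food-restricted. Hypothalamic nuclei were profiled on Day 1 from 3 FGF1 and 3 PF vehicle mice and on Day 5 from 2 and 2, and whole hypothalamic cells were profiled on Day 5 in a separate cohort of 6 and 6. By the paper, nuclei came from a hypothalamic punch of mice from Jackson Laboratories. Whole cells came from a triangular cut of the mediobasal hypothalamus of mice from Janvier Labs. Each library came from the hypothalamus of 1 mouse, and the authors removed neurons and mixed clusters from the whole cells, so neurons are represented by nuclei only.

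Ionotropic receptors are ion channels that open when transmitter binds. AMPA, kainate and NMDA receptors are tetramers gated by glutamate and carry excitatory current, delta receptors share their structure and act mainly as synaptic organisers, and GABA-A receptors are pentamers of alpha, beta and gamma or other subunits that conduct chloride and are the targets of benzodiazepines and neurosteroids. The subunit makes the channel: GluA2, encoded by Gria2, renders AMPA receptors impermeable to calcium, GluN3A, encoded by Grin3a, lowers the calcium permeability of NMDA receptors, and the gamma subunits anchor GABA-A receptors at synapses. Astrocytes, tanycytes and oligodendrocyte precursor cells (OPC) also express some of these genes and respond to both transmitters.

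The tables held 24965 nuclei and 54890 cells. Total unique molecular identifiers (UMIs, one per captured transcript) per library ranged from 2721087 to 16345981 in nuclei and from 2652897 to 11866269 in cells. On Day 1 the median UMI count per nucleus was 2029 to 2816 in the FGF1 libraries and 3178.5 to 3776 in the PF vehicle libraries, with no overlap. Of the nuclei barcodes, 318 of 24645 (1.29%) occurred in more than 1 library, and of the cell barcodes 1791 of 53065 (3.38%). Each batch named in the deposited metadata held 1 FGF1 and 1 PF vehicle library.

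Levels are given as CPM, the UMIs of a gene per 1000000 UMIs summed over 1 mouse's nuclei or cells of a type, scaled between mice. They compare cell types for the same gene. They do not rank genes against each other, since capture depends on a gene's length and, in nuclei, on its introns. Types with nuclei from at least 3 mice were described: 29 types of nuclei, 21 of them neuronal, and 12 classes of whole cells. Their means pool FGF1 and PF vehicle mice unless a group is named.

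In nuclei, 32 of the 36 genes had their highest mean level in a neuron type, where 21 of the 29 types were neuronal. The highest types of the other 4 were ependymal cells for Gabrr1 and Gabrr2, astrocytes for Grin2c and OPC/COP for Gabra6. Of the 36, 29 reached 20 CPM in some type, and each of these was highest in a neuron type. The other 7 stayed below 20 CPM everywhere: Gabra6, Gabrd, Gabrr1, Gabrr2, Gabrr3, Grin2c and Grin3b. For all but 3 of the 29, the highest type and the next differed by less than 1 SD between mice, so the order of neighbouring neuron types was not resolved, and in the PF vehicle mice alone the same type ranked highest for 7 of 29. These are descriptions, since the cell types were defined from the same expression values.

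**Figure D1:**
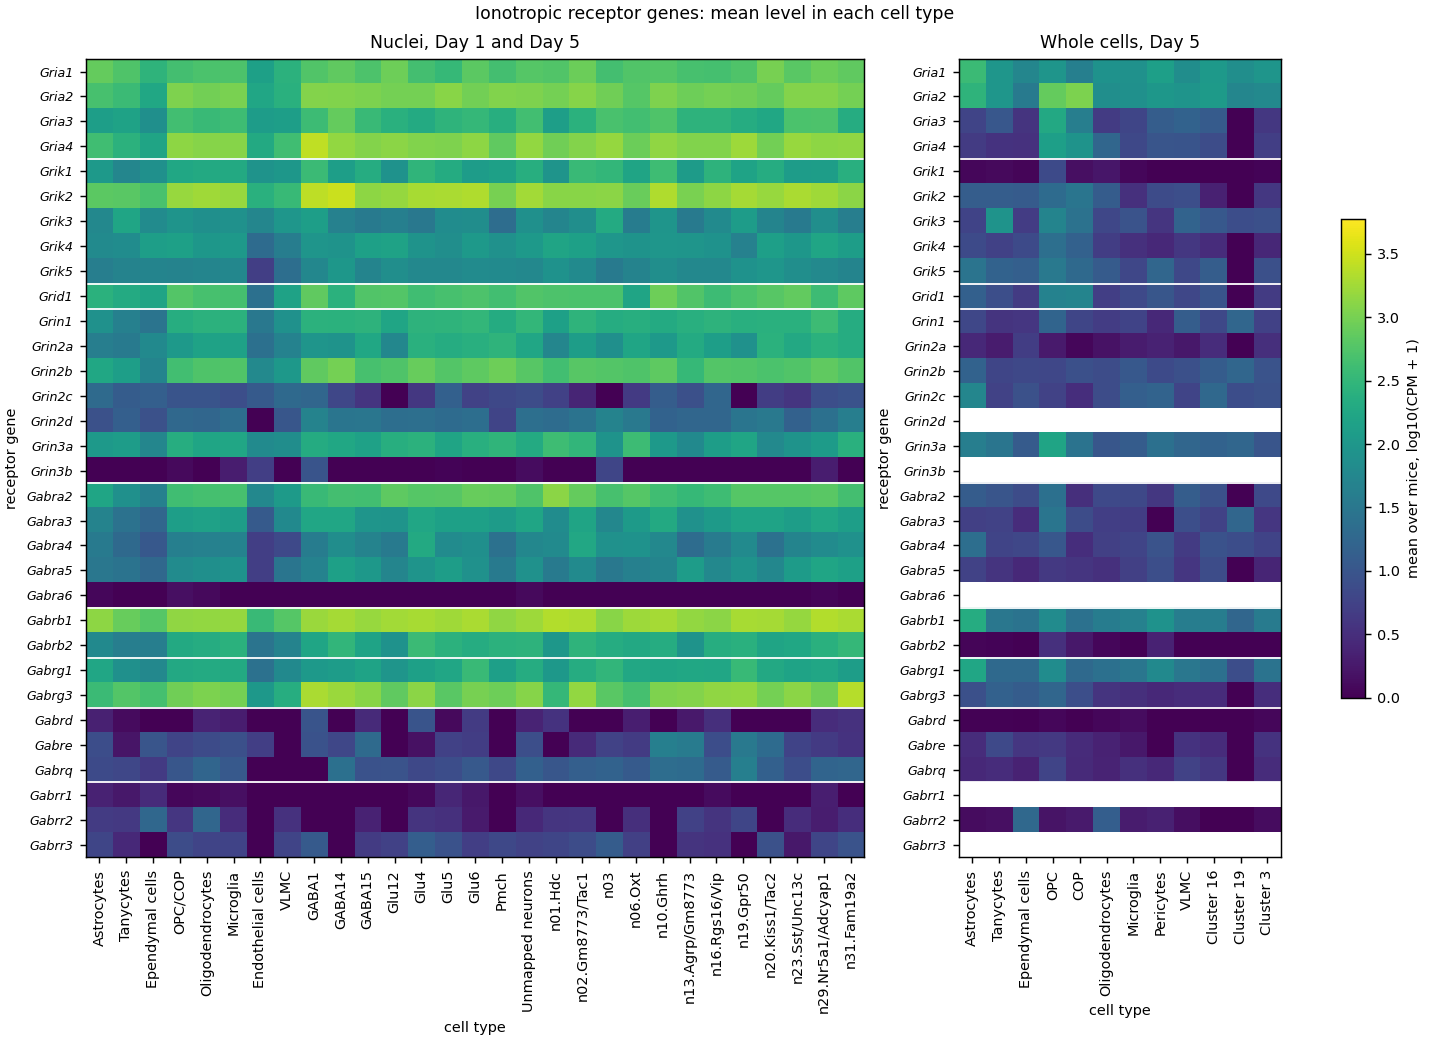
Mean level of the receptor genes described here, as log10(CPM + 1), in 29 types of nuclei and 12 classes of whole cells, with genes ordered by family. In nuclei most genes are high throughout the neuron types, and oligodendrocyte, OPC/COP and microglia nuclei look like neurons. In whole cells few means reach 100 CPM: 4 in astrocytes, 4 in OPC, 2 in cluster 16, 1 in pericytes and 1 in COP (committed oligodendrocyte precursors). In whole tanycytes 0 do. These means pool both groups. In PF vehicle mice alone, Gria1 and Gria2 are each at 115 CPM in tanycytes, and Gria1 is at 108 CPM in cluster 3. In the same mice Gria2 is at 103 CPM in microglia and 116 CPM in pericytes.

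In 3 genes the highest type stood apart from the next by more than 1 SD. Gria4, which encodes a fast-gating AMPA receptor subunit, was at 2619 ± 616 CPM (SD, n = 4) in GABA1 neurons, against 1661 ± 294 (n = 5) in n19.Gpr50 neurons. Gabra2, which encodes the alpha2 subunit of GABA-A receptors, was at 1301 ± 216 CPM (n = 5) in histaminergic n01.Hdc neurons, against 789 ± 117 (n = 8) in Glu6 neurons. Gria3, a further AMPA receptor gene, was at 763 ± 137 CPM (n = 4) in GABA14 neurons, against 554 ± 155 (n = 6) in n10.Ghrh neurons.

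For the remaining AMPA and NMDA receptor genes at 20 CPM or more, the highest type and the next were within 1 SD. Gria1 was highest in n20.Kiss1/Tac2 neurons (1003 ± 268 CPM, n = 7) and Gria2 in Glu5 neurons (1261 ± 179, n = 10). Gria2 varied 2.07-fold between the lowest and the highest neuron type. Grin1, which encodes the obligatory NMDA receptor subunit GluN1, was highest in n29.Nr5a1/Adcyap1 neurons (385 ± 71.8 CPM, n = 10), the ventromedial type. The GluN2 subunits, which set the kinetics of NMDA receptors, had their highest means in Pmch neurons for Grin2a (285 CPM), GABA14 neurons for Grin2b (980 CPM) and n03 neurons for Grin2d (48.7 CPM). Grin2d had the widest range between neuron types (9.96-fold) among the genes detected in all of them. This range rests on low levels, from a type mean of 4.89 CPM to one of 48.7 ± 38.3 CPM (n = 5). Grin3a was at 397 CPM in n01.Hdc neurons and 395 CPM in n06.Oxt neurons, the oxytocin type, which did not differ beyond the spread.

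Among kainate and delta receptor genes, Grik2 (3040 CPM) and Grik5 (99.6 CPM) were highest in GABA14 neurons. Grik1 (406 CPM) and Grid1 (871 CPM) were highest in n10.Ghrh neurons, the growth hormone-releasing hormone type. Grik4 (166 CPM) was highest in n29.Nr5a1/Adcyap1 neurons. Grik3 was the exception to the neuronal pattern. Its mean was 200 ± 88.0 CPM (n = 5) in n03 neurons but 163 ± 33.6 CPM (n = 9) in tanycytes, the second highest of all types, against a median of 50.7 CPM over the neuron types.

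Among GABA-A receptor genes, Gabrb1 was the most even, with a 1.75-fold range over neuron types and its highest mean in n01.Hdc neurons (2229 CPM). Gabra5 (166 CPM) was highest in n29.Nr5a1/Adcyap1 neurons. Gabra4 (195 CPM) and Gabrb2 (369 CPM) were highest in Glu4 neurons, and Gabra4 had a 9.55-fold range. Gabrg3 (2243 CPM) was highest in n31.Fam19a2 neurons and Gabrg1 (357 CPM) in Glu6 neurons. The epsilon, alpha3 and theta subunit genes Gabre, Gabra3 and Gabrq are X-linked. Gabre (42.3 CPM) and Gabra3 (195 CPM) were highest in n10.Ghrh neurons and Gabrq (42.2 CPM) in n19.Gpr50 neurons.

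Within a family, the share of UMIs taken by each subunit shifted between types. Gria4 held 40.9% ± 2.38 (SD, n = 10) of AMPA receptor UMIs in unmapped neurons, the largest group of neuron nuclei, and 54.7% ± 3.94 (n = 4) in GABA1 neurons. Gabra2 held 54.5% ± 3.23 of alpha subunit UMIs in unmapped neurons and 85.5% ± 1.89 (n = 5) in n01.Hdc neurons. Grik2 held 79.1% ± 3.20 of kainate receptor UMIs and Grin2b 75.7% ± 2.91 of GluN2 UMIs in unmapped neurons. These shares compare the same ratio of genes between types and are no measure of protein.

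**Figure D2:**
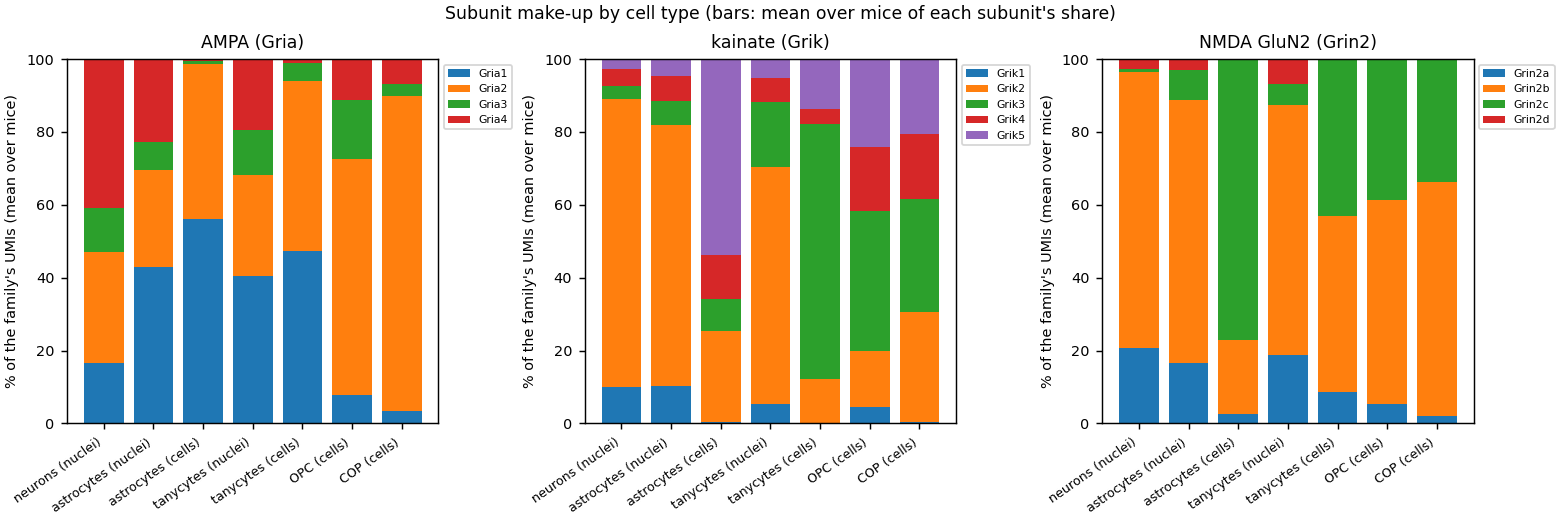
Subunit make-up of the AMPA, kainate and GluN2 families as stacked bars, each the mean percent of a family's UMIs per mouse, in selected types of nuclei and classes of whole cells. The bars pool FGF1 and PF vehicle mice. Of the types drawn, Gria4 is the largest AMPA share in unmapped neurons, Gria1 in astrocytes and Gria2 in whole OPC and COP. In whole astrocytes the lead of Gria1 depends on the group. Its median share of the Gria1 and Gria2 UMIs was 46.4% in PF vehicle and 67.8% in FGF1 mice. Grin2c holds most of the GluN2 UMIs in whole astrocytes.

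The transmitter phenotype of unmapped neurons allowed a test that the cell type labels did not decide. Glutamatergic nuclei held at least 2 UMIs of Slc17a6 (vesicular glutamate transporter) and none of a GABAergic gene. GABAergic nuclei held at least 2 UMIs summed over Gad1, Gad2 and Slc32a1 (GABA synthesis and loading) and none of Slc17a6. Over all mice there were 317 glutamatergic and 2441 GABAergic nuclei. The other 9228 of the 11986 unmapped neuron nuclei fell in neither class. The 2 classes were compared within the 9 mice that had at least 10 nuclei of each. Of 26 receptor genes tested, 2 were called (both lower in glutamatergic nuclei), against 2.44% of all genes.

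Grik3, a kainate receptor gene on chr4:125490700-125714173, was at 7.14 to 149 CPM (median 33.8) in glutamatergic nuclei and at 88.9 to 163 CPM (median 108) in GABAergic nuclei. The levels overlapped, and Grik3 was lower in the glutamatergic nuclei of 8 of 9 mice (log2 fold change -1.42 ± 0.21 SE, FDR 1.06e-07). Gria4, on chr9:4417896-4796234, was at 848 to 1727 CPM (median 1313) in glutamatergic and 1109 to 1781 CPM (median 1682) in GABAergic nuclei. The difference was small and in the same direction in 9 of 9 mice (log2 fold change -0.29 ± 0.06 SE, FDR 0.000987). Of 30 genes tested from 6 lists of receptor partners, 4 were called. Neto1 and Neto2, which encode auxiliary subunits of kainate receptors, were lower in glutamatergic nuclei (log2 fold changes -0.53, FDR 0.0252, and -0.61, FDR 0.0346), as was the AMPA receptor scaffold Grip1 (-0.38, FDR 0.000455), while the metabotropic glutamate receptor gene Grm8 was higher (0.68, FDR 1.35e-08). The median depth, over the nuclei of all mice, was 3261 UMIs in glutamatergic and 3062 UMIs in GABAergic nuclei. In PF vehicle mice alone, Grik3 was no longer called (FDR 0.0567), and without the mouse term Gria4 was not (FDR 0.924).

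Levels in glial nuclei have to be read beside the neuronal RNA in them. The 5 neuron markers Snap25, Syt1, Rbfox3, Snhg11 and Stmn2 summed to 104 UMIs per 10000 in unmapped neurons, and to 90.04 in microglia, 90.05 in oligodendrocyte and 72.1 in OPC/COP nuclei. In microglia nuclei the microglia markers themselves summed to 6.75 UMIs per 10000. Receptor genes took 1.67% of UMIs in unmapped neurons and 1.47% to 1.498% in these 3 glial types, so the 21 or 22 genes at 100 CPM or more there could not be assigned to the glial cell. Astrocyte, tanycyte and ependymal nuclei held fewer neuron marker UMIs (24.8, 17.0 and 10.6 per 10000) and fewer receptor UMIs (0.664%, 0.554% and 0.453%). At 100 CPM or more were 15 receptor genes in astrocyte nuclei, 13 in tanycyte nuclei and 10 in ependymal nuclei. Restricted to the 558 of 1538 astrocyte nuclei with at most 1 neuron marker UMI, the 15 genes became 8. In endothelial nuclei 9 genes and in VLMC (vascular leptomeningeal cell) nuclei 12 genes reached 100 CPM, with neuron markers at 13.1 and 26.6 UMIs per 10000.

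Whole cells held far less neuronal RNA, with 3.05 neuron marker UMIs per 10000 in astrocytes, 2.56 in tanycytes, 2.13 in COP and 4.74 in OPC, the highest of the classes, where 55.6% of cells had no such UMI. Of the 31 genes, 19 reached a mean of 20 CPM in some class: 16 in OPC, 10 in COP, 9 in astrocytes and 6 in tanycytes. Astrocytes had the highest level of Gria1, Grin2c, Gabrb1, Gabrg1 and Gabra4, each by more than 1 SD over the next class. Gria1 was at 373 ± 83.8 CPM (SD, n = 12 mice), Gabrb1 at 216 ± 18.6, Gabrg1 at 172 ± 20.8, Grin2c at 53.9 ± 14.1 and Gabra4 at 22.3 ± 6.17. Gabrg1 held 93.3% ± 2.05 of gamma subunit UMIs and Gabrb1 92.9% ± 1.98 of beta subunit UMIs in whole astrocytes. Grin2c, which encodes GluN2C, held 77.1% ± 7.57 of GluN2 UMIs there. In astrocyte nuclei, by contrast, Grin2b held 72.1% ± 8.36 and Gabrg3 60.1% ± 11.1 of their families, and Grin2c was at 19.05 CPM. Nuclei counted introns and whole cells did not, and the neuronal RNA, the dissection and the supplier of the mice differed. The 2 assays therefore cannot be compared subunit by subunit.

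Gria2 in COP, and Gria3 and Gria4 in OPC, were at their highest whole-cell levels. Gria2 was at 1090 ± 162 CPM in COP and 775 ± 76.6 CPM in OPC (n = 12), and held 86.4% ± 2.68 and 65.0% ± 3.39 of AMPA receptor UMIs. In OPC, Gria3 was at 192 ± 27.2 CPM and Gria4 at 135 ± 28.7 CPM, each by more than 1 SD over COP. Grin3a was at 162 ± 24.4 CPM in OPC and 40.2 ± 10.0 CPM in astrocytes, the next class over the mice of both groups. In PF vehicle mice alone, tanycytes (36.6 CPM) and pericytes (36.1 CPM) lay above astrocytes (32.2 CPM). OPC were also highest for Gabra3 (28.7 CPM), Gabra2 (23.8 CPM), Grik4 (23.1 CPM) and Grik5 (32.6 CPM), by less than 1 SD over the next class. Grid1 was alike in OPC (47.1 CPM) and COP (50.3 CPM).

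Tanycytes, the radial glia that line the third ventricle, were highest for Grik3 in whole cells, at 85.7 ± 52.9 CPM (n = 12), which was within 1 SD of OPC, the next class (50.4 ± 10.9 CPM), with 70.1% ± 9.80 of kainate receptor UMIs. The spread came from 2 FGF1 mice at 148 and 220 CPM, above the other FGF1 mice (43.2 to 62.6 CPM) and the PF vehicle mice (50.2 to 122 CPM). Grik3 was among the leading genes of tanycyte cluster 10, and these 2 mice had 21.2% and 40% of their tanycytes in that cluster, against 3.34% to 7.72% in the other FGF1 mice. The rho receptor gene Gabrr2 was low everywhere but was highest in ependymal cells in both assays, at 17.2 ± 12.6 CPM (n = 8) in nuclei and 17.9 ± 10.4 CPM (n = 12) in whole cells, followed by oligodendrocytes at 16.8 ± 13.9 CPM (n = 10) and 12.5 ± 5.35 CPM (n = 12). The 2 classes did not differ beyond their spread.

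FGF1 was compared with PF vehicle in each type by a test on the counts summed per mouse, with calls at a false discovery rate (FDR) below 0.05 over all genes tested in that type. Of the 36 genes, 32 passed the count filter in at least 1 type on Day 1, 31 on Day 5 and 22 in whole cells. The genes that passed in no type were Gabra6, Gabrd, Gabrr1 and Grin3b on both days, and Gabrr2 on Day 5.

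On Day 1, receptor genes changed in tanycytes and ependymal cells only in single cases, and edgeR called none in a neuron type. Over 18 types and 388 tests of receptor genes, 2 were called, both lower in FGF1 mice. Of all tests, 1.05% were called. At an unadjusted p below 0.05 there were 44 receptor tests, against 8.12% of all tests, and 155 of the 388 fold changes (39.9%) were above 0, against 51.1% of all tests.

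Grin3a (chr4:49661611-49845744, minus strand), which encodes the GluN3A subunit, fell in tanycytes. It was the only call among 14 receptor genes tested there, against 9.14% of all genes. Its levels were 30.3, 64.3 and 12.5 CPM in the FGF1 mice and 217, 151 and 105 CPM in the PF vehicle mice. The groups did not overlap, so Grin3a was lower in 3 of 3 batches. The level fell to 0.233 of PF vehicle (log2 fold change -2.10 ± 0.48 SE, FDR 0.0165). The call was lost with batch as a term (-2.07, FDR 0.0507) and without PF vehicle replicate 1 (-1.84, FDR 0.13). On Day 5 the same gene was at 83.3 and 166 CPM in FGF1 tanycytes and at 262 CPM in the 1 PF vehicle mouse with enough tanycytes, too few for a test.

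Gria1 (chr11:57011387-57330244, plus strand), which encodes the GluA1 subunit, fell in ependymal cells. It was the only call among 8 receptor genes tested there, against 19% of all genes. In neither tanycytes nor ependymal cells were receptor genes called more often than all genes. Its levels were 164, 156 and 91.6 CPM in the FGF1 mice and 407, 187 and 554 CPM in the PF vehicle mice. The groups did not overlap, and the level fell to 0.369 of PF vehicle (log2 fold change -1.44 ± 0.40 SE, FDR 0.0169). DESeq2 did not call it (-1.42, adjusted p 0.0765), nor did edgeR without FGF1 replicate 3 (FDR 0.0621), PF vehicle replicate 1 (FDR 0.0736) or PF vehicle replicate 3 (FDR 0.0977). These levels rest on 5 to 13 UMIs per FGF1 mouse and 12 to 38 per PF vehicle mouse. On Day 5, with no PF vehicle mouse to compare, the 2 FGF1 mice were at 125 and 614 CPM.

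In Day 1 tanycytes the gamma3 subunit gene Gabrg3 went the other way and just missed the threshold. This gene is named after its values were seen. It was at 662, 972 and 1223 CPM in the FGF1 mice and 461, 248 and 368 CPM in the PF vehicle mice (log2 fold change 1.38 ± 0.41 SE, FDR 0.053). The median log2 fold change of receptor genes was -0.49 (tanycytes), -0.50 (ependymal cells) and -0.37 (astrocytes), against 0.03, -0.05 and -0.01 over all genes tested there. Neuron markers summed to 1347 to 1634 CPM in FGF1 and 1409 to 3177 CPM in PF vehicle tanycytes, to 403 to 1683 and 562 to 1515 CPM in ependymal cells, and to 1422 to 2384 and 2518 to 3809 CPM in astrocytes. Limited to nuclei with at most 1 neuron marker UMI, Grin3a was still called in tanycytes, while too few ependymal nuclei were left for a test. FGF1 nuclei were also shallower (medians above), and with each nucleus thinned to 1500 UMIs neither gene kept enough counts and no receptor gene was called. Without PF vehicle replicate 1 there were 0 calls, without PF vehicle replicate 3 there was 1, and without FGF1 replicate 1 or 2 there were 4.

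In neurons on Day 1, edgeR called 0 of 256 receptor tests in 11 types, while 18 of 44448 tests over all genes were called there (0.0405%). At an unadjusted p below 0.05 there were 26 receptor tests, against 6.69% of all tests in these types. On simulated counts of Day 1 unmapped neurons the fit recovered 21% of 2-fold changes, so the lack of calls does not show unchanged genes. DESeq2 called 1, Gabrg1 in n29.Nr5a1/Adcyap1 neurons. By edgeR the lowest p in that type was also for Gabrg1, the gamma1 subunit gene (log2 fold change -1.31 ± 0.28 SE, FDR 0.0788). In Oxt neurons it was for Gabrg1 in the opposite direction (1.17 ± 0.38, FDR 0.799).

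Grin1 had the lowest p among receptor genes in 5 types: unmapped neurons (log2 fold change -0.71 ± 0.19 SE, FDR 0.596), Glu5 neurons (-0.78, FDR 0.963), n16.Rgs16/Vip neurons (-0.61, FDR 0.995), microglia (-1.01, FDR 0.763) and oligodendrocytes (-0.72, FDR 0.721). All 5 were negative and none was called. In other types with at least 1500 genes tested, the lowest p was for Gria3 in GABA15 (-0.97, FDR 0.997) and n23.Sst/Unc13c neurons (-0.72, FDR 0.746), Grik1 in Glu4 (-0.95, FDR 0.977), Gabrg3 in Glu6 (0.95, FDR 0.998) and Gabra4 in n02.Gm8773/Tac1 neurons (-0.79, FDR 0.998). In glia it was for Gabrg1 in astrocytes (-1.21, FDR 0.259) and OPC/COP (-1.10, FDR 0.535). In astrocytes Gabrg1 was at 84.9, 88.5 and 87.4 CPM in the FGF1 mice and 253, 189 and 160 CPM in the PF vehicle mice. These groups did not overlap, but the difference did not pass over the genes tested.

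**Figure D3:**
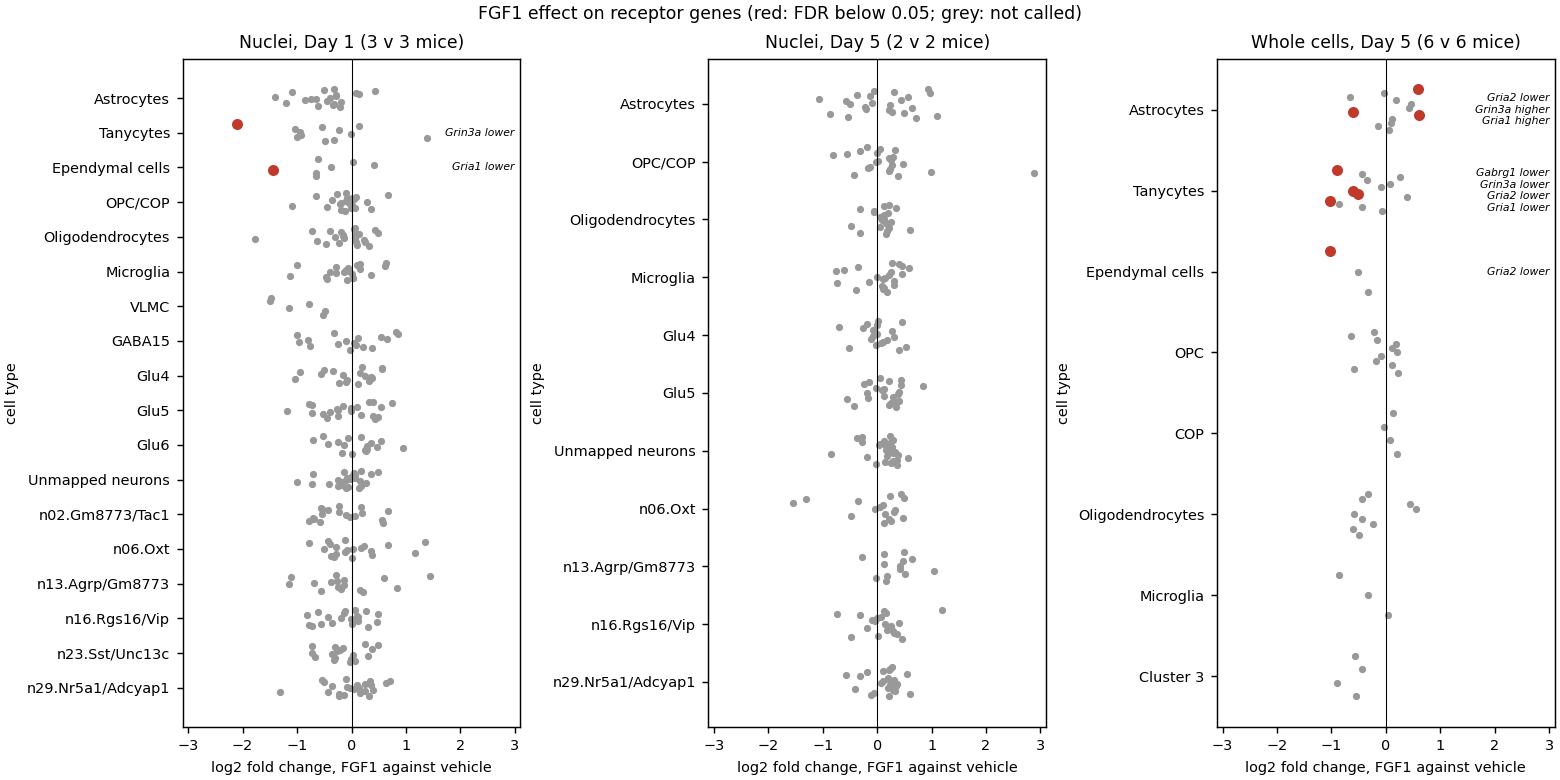
Log2 fold change, FGF1 over PF vehicle, of the receptor genes described here in each type, for nuclei on Day 1, nuclei on Day 5 and whole cells on Day 5; each point is 1 gene and red points were called at FDR below 0.05. On Day 1 the 2 calls lie below 0 in tanycytes and ependymal cells, on Day 5 nuclei have none, and in whole cells the calls lie in astrocytes, tanycytes and ependymal cells, 2 of them above 0.

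On Day 5, edgeR called none of 276 receptor tests in 11 types of nuclei, and DESeq2 called none either. The background was 0.288% of all tests. At an unadjusted p below 0.05 there were 20, against 8.6% of all tests, and 189 of 276 fold changes (68.5%) were above 0, against 50.3% of all tests. In neurons the count was 0 of 171 in 7 types, against 0.143% of all tests there, with 13 unadjusted, against 7.96%. On simulated counts of Day 5 unmapped neurons the fit recovered 50% of 2-fold changes. The change nearest to the threshold was Gabra4 in OPC/COP nuclei (log2 fold change 2.89 ± 0.78 SE, FDR 0.0669). In neurons the lowest p was for Gria2 in unmapped (0.32 ± 0.13, FDR 0.471), Grin3a in n16.Rgs16/Vip (1.19, FDR 0.578), Grik4 in n29.Nr5a1/Adcyap1 (-0.57, FDR 0.336) and Glu5 (0.85, FDR 0.858), Grin1 in n06.Oxt (-1.31, FDR 0.472) and Grin2b in Glu4 neurons (0.46, FDR 0.729). In glia it was for Gabra4 in astrocytes (1.09, FDR 0.272) and Gabrg1 in microglia (-0.73, FDR 0.583) and oligodendrocytes (-0.47, FDR 0.705). With 2 mice per group, 1 receptor gene was called without PF vehicle replicate 28 and 1 without PF vehicle replicate 38. Each of these fits leaves 1 PF vehicle mouse, which is assumed to vary like the FGF1 mice, so they say little about stability.

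The difference of the FGF1 effect between the days was tested itself, in 11 types. EdgeR called 0 of 287 receptor tests, with 14 at an unadjusted p below 0.05. Over all genes 0.00784% were called and 4.49% had an unadjusted p below 0.05. DESeq2 called 0 receptor genes in this contrast too. The lowest p was for Gabrg1 in Oxt neurons (log2 difference, Day 5 minus Day 1, -1.66 ± 0.58 SE, FDR 0.997), followed by Gria1 in Agrp neurons (n13.Agrp/Gm8773), which drive feeding (1.34 ± 0.47, FDR 0.811).

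The whole cells, with 6 mice per group, gave most of the calls. On Day 5, 8 of the 11 classes tested held receptor genes that passed the filter, and 9 of 69 tests were called, 2 higher and 7 lower in FGF1 mice. Of all tests, 4.18% were called. At an unadjusted p below 0.05 there were 27 receptor tests, against 17.7% of all tests. The calls lay in astrocytes, tanycytes and ependymal cells, and Gria1, Gria2, Grin3a and Gabrg1 made 8 of them.

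In astrocytes 4 of 15 receptor genes were called, against 12.6% of all genes. Gria1 rose. Its levels ran from 407 to 488 CPM (median 450) in FGF1 mice and from 263 to 326 CPM (median 296) in PF vehicle mice, and every FGF1 mouse lay above every PF vehicle mouse. This was a 1.52-fold increase (log2 fold change 0.60 ± 0.10 SE, FDR 0.000131), seen in 6 of 6 batches. Where groups do not overlap, here and below, that batch count follows from the lack of overlap.

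Gria2 (chr3:80681450-80802835, minus strand) fell in the same cells. It was at 204 to 261 CPM (median 210) in FGF1 mice and 288 to 384 CPM (median 339) in PF vehicle mice. The groups did not overlap, and the level fell to 0.657 of PF vehicle (log2 fold change -0.61 ± 0.11 SE, FDR 0.000325) and was lower in 6 of 6 batches. Gria1 therefore took 63.0% to 69.8% of the Gria1 and Gria2 UMIs in FGF1 astrocytes and 41.1% to 53.2% in PF vehicle astrocytes. In whole tanycytes the same share was 35.8% to 59.2% in FGF1 and 46.0% to 58.3% in PF vehicle mice. In nuclei on Day 5, from other mice, it was 68.4% and 74.2% in FGF1 and 52.1% and 63.9% in PF vehicle astrocytes, and 65.3% and 71.9% in FGF1 tanycytes and 46.6% in those of the 1 PF vehicle mouse with enough of them (73 UMIs). In nuclei on Day 1 the groups overlapped, at 55.0% to 70.1% and 49.1% to 58.5% in astrocytes and 48.9% to 62.5% and 57.1% to 59.1% in tanycytes.

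Grin3a rose in astrocytes. It was at 38.3 to 57.0 CPM (median 47.4) in FGF1 mice and 27.2 to 36.5 CPM (median 32.7) in PF vehicle mice, with no overlap (1.498-fold, log2 fold change 0.58 ± 0.14 SE, FDR 0.00612, higher in 6 of 6 batches). In Day 5 astrocyte nuclei Gria1 was at 1113 and 1249 CPM in FGF1 and 762 and 731 CPM in PF vehicle mice (log2 fold change 0.64 ± 0.36, FDR 0.466), Gria2 at 514 and 434 against 431 and 671 CPM (-0.22 ± 0.39, FDR 0.843), and Grin3a at 180 and 120 against 57.3 and 113 CPM (0.93 ± 0.42, FDR 0.331). None of the 3 was called in nuclei, where Gria1 and Grin3a lay higher in both FGF1 mice and Gria2 overlapped.

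Of the genes that were highest in astrocytes among whole-cell classes, Gabrg1, Gabrb1 and Grin2c were not called there. Gabrg1 was at 156 to 221 CPM in FGF1 mice and 152 to 188 CPM in PF vehicle mice (log2 fold change 0.12 ± 0.11 SE, FDR 0.528). Gabrb1 was at 204 to 245 and 182 to 228 CPM (0.10 ± 0.10, FDR 0.599). Grin2c was at 33.5 to 70.9 and 45.1 to 83.0 CPM (-0.03 ± 0.17, FDR 0.944). The ranges of these 3 genes overlapped throughout. Grin2b missed the threshold (-0.66 ± 0.24, FDR 0.0713).

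**Figure D4:**
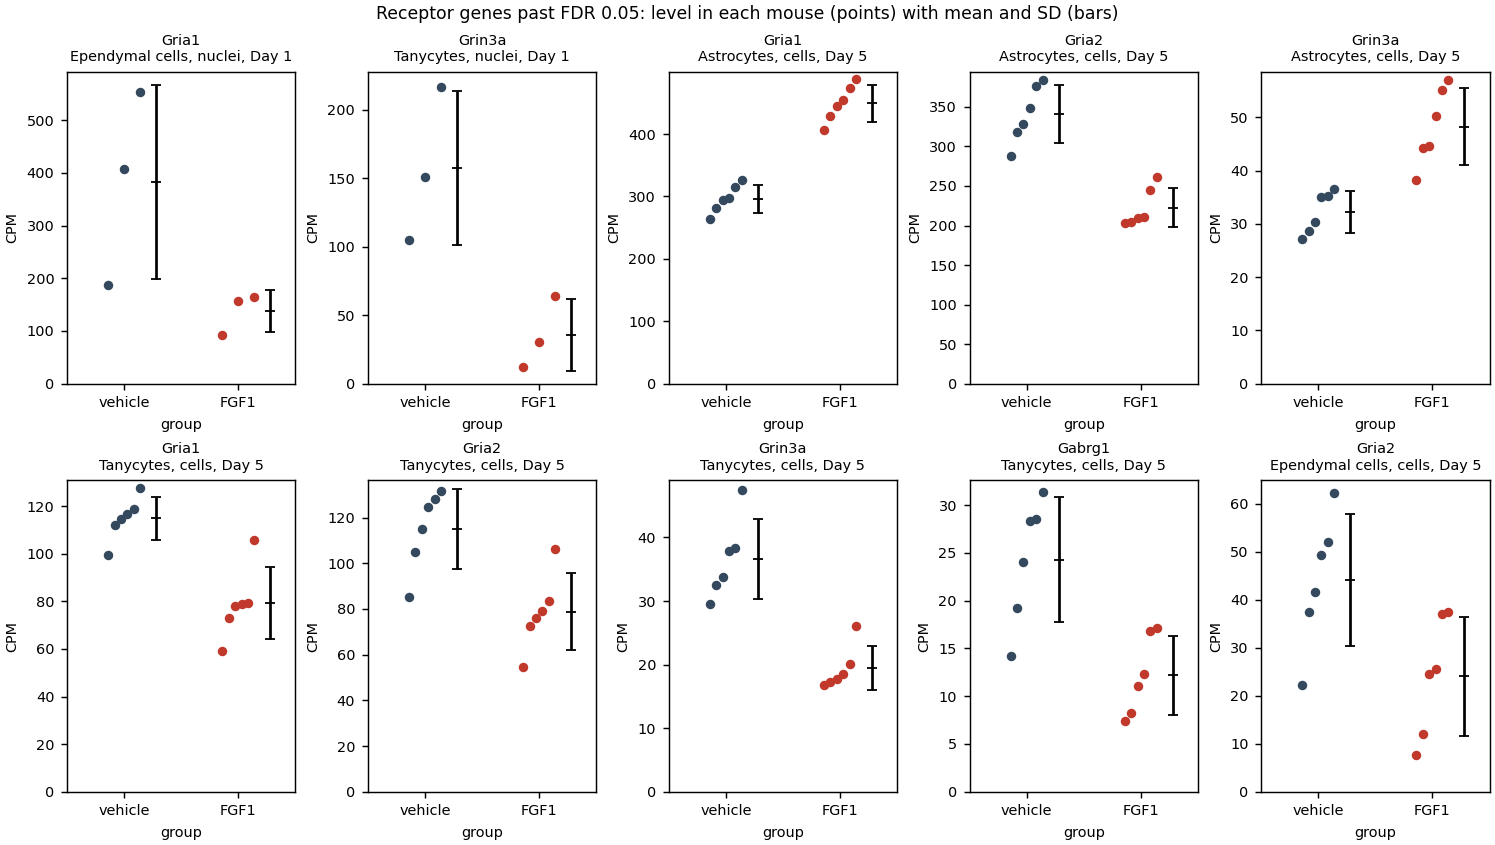
Level in CPM of the called receptor genes described here in each mouse, by group, for 2 calls in Day 1 nuclei and 8 in Day 5 whole cells, with the mean and SD of each group. Gria1, Gria2 and Grin3a in astrocytes and Grin3a in tanycytes show no overlap between the groups, which overlap for Gria2 in ependymal cells.

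Neuronal RNA was lower in the FGF1 whole cells. The 5 neuron markers summed to 105 to 233 CPM in FGF1 and 251 to 531 CPM in PF vehicle astrocytes, to 134 to 269 and 212 to 421 CPM in tanycytes, and to 74.8 to 265 and 181 to 365 CPM in ependymal cells, and all 5 had a lower median in FGF1 mice in each of these classes. In the 9680 of 13580 astrocytes and 9740 of 14404 tanycytes with no neuron marker UMI, Gria1, Gria2 and Grin3a were called in astrocytes and Gabrg1, Gria1, Gria2 and Grin3a in tanycytes, in the same directions. In such ependymal cells no receptor gene was called. An astrocyte held a median of 1087 UMIs and a tanycyte 1465, with 3.05 and 2.56 neuron marker UMIs per 10000. A cell can therefore hold neuronal RNA and no marker UMI, so these fits do not show how much neuronal RNA remained. Gad2 and Slc17a6, which encode a GABA-synthesising enzyme and a vesicular glutamate transporter of neurons, were lower in FGF1 astrocytes too (log2 fold changes -1.20 and -1.31).

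The astrocytes of the 2 groups also lay in different clusters. Cluster 1 held 81.6% to 96.3% of each PF vehicle mouse's astrocytes and 6.93% to 52.2% of each FGF1 mouse's, and cluster 4 held the rest. The clusters were made from the same expression values. Within cluster 1, 0 of 11 receptor genes were called by edgeR (background 0.404%, 1 unadjusted), and within cluster 4, 0 of 9 (background 0.385%, 1 unadjusted). DESeq2 and edgeR with batch as a term called 0 in either cluster too.

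Gria1 was higher at the median in FGF1 mice within both clusters, at 346 against 280 CPM in cluster 1 (log2 fold change 0.30, FDR 0.389) and 509 against 380 CPM in cluster 4 (0.31, FDR 0.414). In cluster 1 every FGF1 mouse (334 to 389 CPM) lay above every PF vehicle mouse (258 to 320 CPM), in cluster 4 the groups overlapped, and in both Gria1 was higher in the FGF1 mouse in 6 of 6 batches. It was not called with batch as a term either (FDR 0.496 and 0.592). Gria2 was at 401 against 347 CPM in cluster 1 (0.11) and 185 against 177 CPM in cluster 4 (-0.03), and higher in the FGF1 mouse in 3 of 6 batches in each. For Gria2 the difference between the clusters was thus larger than the difference between the treatments within either. Grin3a was at 39.6 against 32.4 CPM in cluster 1 and 52.8 against 34.4 CPM in cluster 4, higher in 4 and 5 of 6 batches, with overlap in both. The share of Gria1 among Gria1 and Gria2 UMIs was 46.9% against 43.5% at the median in cluster 1, and 73.3% against 68.9% in cluster 4.

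**Figure D5:**
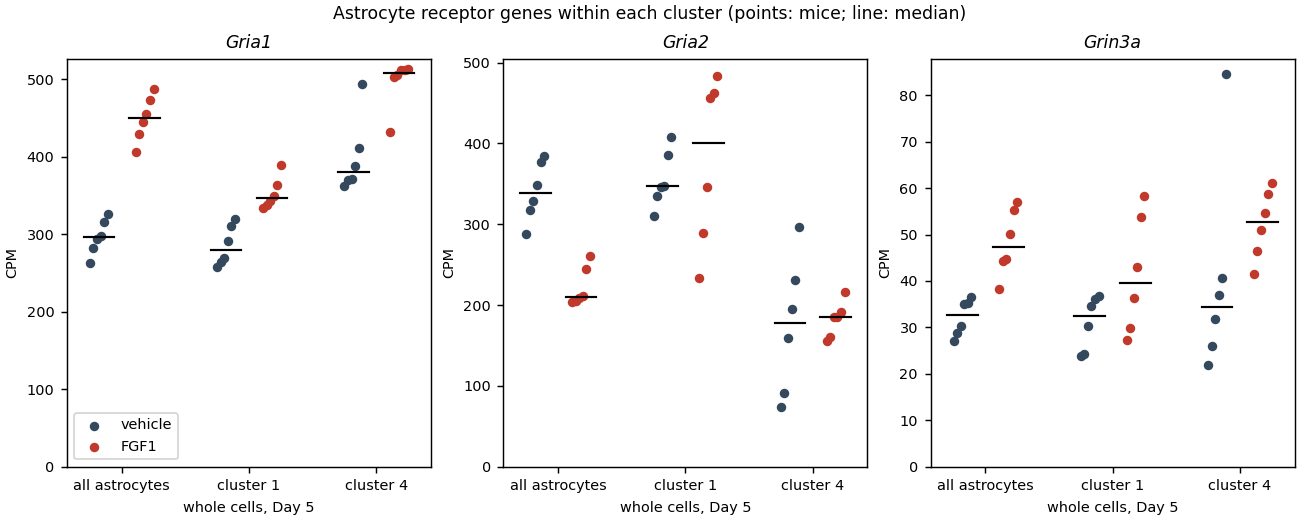
Level in CPM of Gria1, Gria2 and Grin3a per mouse in all whole astrocytes, in cluster 1 and in cluster 4, FGF1 beside PF vehicle. The groups separate over all astrocytes; within clusters Gria2 overlaps, and it is lower in cluster 4 than in cluster 1 in both groups.

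In tanycytes 4 of 15 receptor genes were called, all lower, against 5.08% of all genes. Grin3a was at 16.7 to 26.1 CPM (median 18.1) in FGF1 mice and 29.5 to 47.4 CPM (median 35.8) in PF vehicle mice. The groups did not overlap (log2 fold change -0.90 ± 0.15 SE, FDR 0.0012, lower in 6 of 6 batches). The Day 1 nuclei came from other mice, and there too Grin3a fell in tanycytes, by 2.10 on the log2 scale as given above.

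Gabrg1 (chr5:70751047-70842617, minus strand) was at 7.43 to 17.2 CPM (median 11.7) in FGF1 and 14.2 to 31.4 CPM (median 26.2) in PF vehicle tanycytes (log2 fold change -1.02 ± 0.23 SE, FDR 0.0126). Gria1 was at 59.3 to 106 CPM (median 78.6) and 99.5 to 127 CPM (median 116) (-0.51 ± 0.12, FDR 0.014). Gria2 was at 54.4 to 106 CPM (median 77.6) and 85.1 to 132 CPM (median 120) (-0.60 ± 0.14, FDR 0.0112). The groups overlapped for these 3 genes, of which Gabrg1 and Gria1 were lower in 6 of 6 batches and Gria2 in 5 of 6. In Day 1 tanycyte nuclei Gria1 (log2 fold change -0.99, FDR 0.174) and Gria2 (-0.92, FDR 0.171) were not called.

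Tanycytes were split over clusters 0, 7 and 10, and cluster 0 held 41.7% to 81.8% of an FGF1 mouse's and 53.9% to 87.5% of a PF vehicle mouse's. Within cluster 0, 2 of 13 receptor genes were called, against 5.27% of all genes. These were Gria2 (medians 54.6 and 98.4 CPM, log2 fold change -0.95 ± 0.20 SE, FDR 0.0097) and Grin3a (medians 13.8 and 22.9 CPM, -1.06 ± 0.25, FDR 0.0123), both lower. Gabrg1 (-0.82, FDR 0.0728) and Gria1 (-0.38, FDR 0.081) were not called there. The smaller clusters 7 and 10 had 0 calls of 4 and of 3 receptor genes by edgeR, and 0 by DESeq2. Over all genes and all 5 clusters of astrocytes and tanycytes, edgeR called 676 of 29273 tests. With batch as a term, Gria2 (-0.66, FDR 0.0438) and Grin3a (-0.98, FDR 0.0407) were called in cluster 7, against 2.96% of all genes. Grik3, the tanycyte kainate receptor gene, was not called (log2 fold change 0.27 ± 0.44, FDR 0.798).

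In ependymal cells 1 of 3 receptor genes was called, against 1.28% of all genes. Gria2 was at 7.56 to 37.4 CPM (median 25.1) in FGF1 and 22.2 to 62.1 CPM (median 45.4) in PF vehicle mice. The groups overlapped (log2 fold change -1.03 ± 0.26 SE, FDR 0.0322, lower in 5 of 6 batches), and DESeq2 gave it no adjusted p. Gria1, the gene called in Day 1 ependymal nuclei, was at 30.3 to 57.4 CPM against 35.3 to 91.1 CPM (-0.51 ± 0.21, FDR 0.27).

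In the oligodendrocyte lineage edgeR and DESeq2 called 0 of 14 receptor genes in OPC, 5 in COP and 10 in oligodendrocytes, where 3.24%, 1.25% and 2.25% of all genes were called by edgeR. At an unadjusted p below 0.05 there were 3, 0 and 5 receptor genes, against 17.5%, 12.5% and 18.3% of all genes. In OPC, Gria2 was at 653 to 815 CPM in FGF1 and 715 to 923 CPM in PF vehicle mice (log2 fold change -0.10 ± 0.11 SE, FDR 0.696), and Grin3a at 121 to 179 and 152 to 198 CPM (-0.22 ± 0.14, FDR 0.418). In COP, where FGF1 mice gave 1583 and PF vehicle mice 164 of the cells, Gria2 was at 1029 to 1312 and 815 to 1215 CPM (0.20 ± 0.14, FDR 0.556). In oligodendrocytes Gria2 missed the threshold (-0.58, FDR 0.0734), and without FGF1 replicate 28, 4 of 10 receptor genes were called there, all lower, against 5.72% of all genes. Without that library the count over all classes went from 9 to 15 and the share of all tests called from 4.18% to 5.32%. Microglia (Gria2, -0.87, FDR 0.276) and the unnamed cluster 3 (Gabrg1, -0.90, FDR 0.087) had no call.

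Because Gria1 and Grin3a rose in astrocytes and fell in tanycytes, the difference between the 2 effects was tested itself, with the mouse as a block since both classes came from the same libraries. This test was added after the data were seen. Of 23 receptor genes 4 were called, all with a lower effect in tanycytes, against 15.4% of all genes. The difference (tanycytes minus astrocytes) was -1.13 ± 0.12 SE on the log2 scale for Gria1 (FDR 1.62e-09), -1.48 ± 0.19 for Grin3a (FDR 6.77e-08), -1.18 ± 0.21 for Gabrg1 (FDR 8.11e-05) and -1.17 ± 0.34 for Grin2c (FDR 0.0128). Grin2c was at 51.7 CPM in FGF1 and 56.2 CPM in PF vehicle astrocytes and at 3.12 and 6.13 CPM in tanycytes. In the other classes its mean was lower in FGF1 oligodendrocytes (3.58 and 9.47 CPM), microglia (4.09 and 22.0 CPM), cluster 3 (3.28 and 11.9 CPM) and cluster 16 (11.0 and 26.1 CPM). It was higher in FGF1 OPC (5.35 and 3.84 CPM), COP (4.20 and 0 CPM), pericytes (22.3 and 7.85 CPM) and VLMC (5.56 and 4.10 CPM). In FGF1 ependymal cells the mean was higher (9.33 and 6.27 CPM) but the median lower (3.33 and 5.77 CPM), with 1 FGF1 mouse at 37.4 CPM. Cluster 19 held 1 UMI in all, and each of the others rested on at most 105 UMIs per group. For Gria2, which was lower in both classes, the difference was -0.02 ± 0.14 (FDR 0.959). Mean Gria1 was lower in FGF1 mice in every class but astrocytes. Without a call, it fell in oligodendrocytes (FGF1 70.1, PF vehicle 99.2 CPM), microglia (68.1 and 92.7 CPM) and cluster 3 (74.4 and 108 CPM). Mean Gria2 was lower in every class but COP and cluster 19. Mean Gabrg1 was lower in oligodendrocytes (18.7 and 28.1 CPM), cluster 3 (19.1 and 34.4 CPM), ependymal cells, pericytes and VLMC, and higher elsewhere outside tanycytes. These falls were thus not particular to tanycytes.

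The genes that work with these receptors were followed in 7 lists: AMPA and kainate receptor auxiliary subunits, glutamatergic scaffolds, inhibitory anchoring proteins, metabotropic glutamate and GABA receptors, glycine receptors, and transmitter synthesis and loading. Of all tests, 1.05% were called on Day 1, 0.288% in Day 5 nuclei and 4.18% in whole cells, as above. Of AMPA receptor auxiliary subunits, 0 of 62 tests were called on Day 1, 0 of 67 in Day 5 nuclei and 2 of 20 in whole cells, both lower: Cacng4 in COP (log2 fold change -1.43, FDR 0.00627) and Cnih2 in tanycytes (-0.66, FDR 0.0455). Of glutamatergic scaffolds, 1 of 107 was called on Day 1, Dlg1 higher in ependymal cells (0.96, FDR 0.0372), 1 of 80 on Day 5, Shank1 lower in astrocyte nuclei (-2.60, FDR 0.0221), and 0 of 32 in whole cells.

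Gabbr1, which encodes the GABA-binding subunit of the metabotropic GABA-B receptor, changed most often. On Day 1 it rose in ependymal (log2 fold change 1.90, FDR 0.00181) and tanycyte nuclei (1.43, FDR 0.0423), the only 2 calls of 116 tests in its list. In Day 5 whole cells it fell in tanycytes (-0.50, FDR 0.0276), oligodendrocytes (-0.51, FDR 0.0207) and cluster 3 (-0.74, FDR 0.0236), the 3 calls of 22. Of glycine receptor genes, Glrb fell in tanycyte nuclei on Day 1 (-1.41, FDR 0.0494), 1 of 37 tests. Inhibitory anchoring genes had 0 calls of 53, 47 and 32 tests in the 3 comparisons, kainate auxiliary subunits 0 of 18, 16 and 2, and transmitter genes 0 of 33, 0 of 32 and the 2 of 7 in astrocytes given above.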

How the data were processed

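Nuclei and whole cells of the hypothalamus were sequenced by droplet RNA-seq from the transcript 3′ end. The authors made the deposited UMI counts with Cell Ranger 1.2 on GRCm38 (mm10), with introns included in the nuclei reference, and annotated them with Seurat; they removed doublets from whole cells only. Deposited mitochondrial and ribosomal shares of whole cells are in percent of a cell's UMIs. Nuclei took the deposited cell type labels (660 nuclei labelled as filtered were left out); whole-cell clusters were named from marker genes, 2 mixed or unmatched clusters were left out, and clusters 3, 16 and 19 stayed unnamed (19 after its genes were seen).

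Counts were summed per mouse and type (at least 10 nuclei or cells per mouse and 2 mice per group) and tested on all genes with edgeR 4.0.16 in R 4.3.3 (filterByExpr, TMM, quasi-likelihood, FDR below 0.05 by Benjamini-Hochberg). Levels (CPM) are counts per 1000000 UMIs divided by the TMM factor within a type. CPM and fitted log2 fold changes were computed here. DESeq2 1.42.0, RLE factors, no filter beyond 1 UMI, thinning to 1500 UMIs, a batch term and leaving out each mouse were tried. The fit was tested on simulated counts. It recovered 13% of 2-fold changes in Day 1 tanycyte nuclei and 21% in Day 1 unmapped neurons. In Day 5 unmapped neurons it recovered 50%, and in whole astrocytes and tanycytes 82% and 84%. In unmapped neurons more of its calls were wrong (13.9% on Day 1 and 14.2% on Day 5) than the FDR threshold allows.

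Some genes counted in the totals are not reported here. Of the others, named were every called gene and, in comparisons with fewer than 5 calls, the gene with the lowest p in each type with at least 1500 genes tested; for levels, the highest type of each gene at 20 CPM or more, and genes at 100 CPM or more in glia. Genes and lists were chosen with earlier results of these data known. Each library is a separate mouse. Coordinates are from GENCODE on GRCm38. Where genes overlap on opposite strands (Grin1, Gabra4 with Gabrb1, Gabra5, Grin2d, Grin3b), the 3′ kit keeps strand; Ppp3r2 lies within Grin3a on the same strand.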

Additional observations from a re-analysis of the deposited data

Results flagged for a closer look

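Of 36 groups of 6 mice tested for a mouse far from the others, 1 was found, where chance would give about 1 in 20. In FGF1 tanycytes, Grin3a in replicate 28 was at 26.1 CPM, the highest of the group and apart from the other 5 mice, which lay from 16.7 to 20.1 CPM, but below the lowest PF vehicle mouse at 29.5 CPM. Replicate 28 is also the library without which the number of calls in whole cells rose from 9 to 15.

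The FGF1 effect differed between tanycytes and astrocytes of the same mice for 4 genes, by the test of the difference with the mouse as a block. These were 4 of 23 receptor genes, where 15.4% of all genes were called, so the share is near that of all genes. The log2 effect in tanycytes minus that in astrocytes was -1.18 for Gabrg1, -1.13 for Gria1, -1.17 for Grin2c and -1.48 for Grin3a. For Gria1 and Grin3a the effects had opposite signs and both were called. For Gabrg1 the effect was called in tanycytes only, and for Grin2c, which did not pass the count filter in tanycytes alone, the mean levels there were 3.12 CPM in FGF1 and 6.13 CPM in PF vehicle mice.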

How the results depend on the processing

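On Day 1 the 2 calls became 4 with no count filter and 1 with at least 20 nuclei per mouse, with a batch term, or with glial nuclei limited to 1 neuron marker UMI; they became 0 after thinning, and 0 to 4 without 1 mouse. The replicate block gave 2. Same-numbered mice deviated together in 1 of 3 pairs (correlations of -0.122, -0.0943 and 0.311 in unmapped neurons), so the numbers do not pair the mice. Replicate 3 alone of the FGF1 mice correlated best with its own number. Mice of the same batch had correlations of -0.336, -0.0472 and -0.439 in unmapped neurons, and of -0.551, 0.0565 and -0.471 in astrocytes. By this check the Day 1 batches did not pair the mice either. No paired analysis was possible by number for the Day 5 groups because they share none; with batch as a term, which pairs each FGF1 with a PF vehicle library, 0 receptor genes were called in Day 5 nuclei and 12 in whole cells. On Day 5, 1 nuclei call appeared with no count filter, and 0 to 1 without 1 mouse. In whole cells the 9 calls became 15 with no count filter and 7 to 15 without 1 mouse, and 3 with astrocytes and tanycytes tested within each cluster, by edgeR or DESeq2 (5 with a batch term). DESeq2 gave 3, 0 and 8 calls. The 2 calls between glutamatergic and GABAergic nuclei became 4 with 1 UMI as the minimum, 9 with no count filter, and 1 without the mouse term or in PF vehicle mice alone. Genes at 100 CPM or more in astrocyte nuclei went from 15 to 8 in nuclei with at most 1 neuron marker UMI. The cause was not tested, except that fewer genes passed the filter in the thinned and limited nuclei. The number of tests and the share of all genes called can change with the setting too. In whole cells the share went from 4.18% of 56173 tests to 5.32% of 56533 without FGF1 replicate 28. The counts of calls in this paragraph therefore describe the processing and are no result about receptor genes.

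Within clusters, Gria2 in whole astrocytes reversed in cluster 1 (log2 fold change 0.111, with a batch term 0.116, by DESeq2 0.13) and was -0.03 in cluster 4. Gria1 and Grin3a in astrocytes were called in neither cluster (FDR 0.156 to 0.94), and in tanycytes Gria2 and Grin3a were called in cluster 0 and, with a batch term, cluster 7, and Gria1 in none (FDR 0.0528 to 0.57). Kept under every alternative other than the clusters were Gria1, Gria2 and Grin3a in whole astrocytes and in whole tanycytes. The differences between these classes for Gria1, Grin3a and Gabrg1 were kept in the 15 alternatives run for them. Those were DESeq2, RLE factors, no count filter and leaving out each mouse. The differences were not fitted within clusters or in cells without neuron marker UMIs. Their stability there was not tested. Gria1 in Day 1 ependymal nuclei was lost in 4 of 12 (FDR up to 0.0977), Grin3a in Day 1 tanycyte nuclei in 2 of 14 (up to 0.13), Gria2 in whole ependymal cells in 6 of 17 (up to 0.143), Gabrg1 in whole tanycytes in 5 of 22 (up to 0.151), and the difference for Grin2c in 3 of 15 (up to 0.082). Cells without neuron marker UMIs, the cluster fits and the difference between classes were chosen after seeing the data. Depth limits Day 1 ependymal nuclei, where Gria1 rests on 5 to 38 UMIs per mouse.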
